A study of Mus musculus with 4 samples.

Results

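The clustered protocadherins are 57 protein-coding genes on mouse chromosome 18, taken from the GENCODE M21 annotation of genome build mm10 by their symbols, which start with Pcdha, Pcdhb or Pcdhg. They make up 57 of 21951 protein-coding genes with a coding transcript. The Pcdha cluster holds 14 of them (Pcdha1 to Pcdha12, Pcdhac1 and Pcdhac2), the Pcdhb cluster 22 and the Pcdhg cluster 21 (12 Pcdhga, 6 Pcdhgb and 3 Pcdhgc genes). Pcdhgb8 is annotated as a polymorphic pseudogene and was left out. GENCODE M21 gives 2 genes the symbol Pcdha11, and the one with the identifier ENSMUSG00000007440 is called Pcdha10 here, after the RefSeq gene at its position on the same build.

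The mark mapped here was N6-methyladenosine (m6A), the commonest internal methylation of mRNA, which m6A-seq locates to stretches of a transcript. Whole brains came from mice aged 4 weeks, of strain C57BL/6J by the labels and Prrc2a flox/flox by the series' design text, and their polyadenylated mRNA was fragmented and enriched with an antibody against m6A. The series holds 4 samples of this 1 condition, 2 immunoprecipitated samples (IP) and 2 inputs, and each IP sample has a peak list with a fold enrichment of IP over input for each peak. No Cre driver is named for these samples, and the sources do not say how many animals went into each. The study calls the replicates biological. With 1 condition and 2 replicates no test between groups was possible, so all comparisons below are descriptions. Fold enrichments are given for both replicates, counts over shared intervals use both lists at once, and the difference between the lists is the only measure of error. The files hold no read counts, so the depth is unknown.

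Clustered protocadherins are cadherin-type adhesion proteins of the neuronal surface. Each neuron transcribes a small set of them through promoter choice, and the homophilic binding of the resulting proteins is known for self-avoidance of dendrites and axons and for neuron survival. Each Pcdha and Pcdhg gene has its own large first exon, which encodes the cadherin repeats and the transmembrane segment and is spliced to 3 small or terminal constant exons shared by all genes of the cluster, which encode the common cytoplasmic end. Pcdhb genes have no constant exons, and their whole coding sequence lies in 1 exon. The last genes of the Pcdha and Pcdhg clusters, called C-types (Pcdhac1, Pcdhac2, Pcdhgc3, Pcdhgc4 and Pcdhgc5), differ in sequence and are known to be regulated apart from the others.

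The layout of the annotation followed this scheme. The own exons lie between chr18:36930285 and chr18:37822134 and all run on the plus strand, and each own coding sequence starts with ATG. Their coding part is 2316 to 2562 nt long. The constant exons of Pcdha are at chr18:37156155-37156213 (59 nt), chr18:37159265-37159353 (89 nt) and chr18:37184946-37187657 (2712 nt). Those of Pcdhg are at chr18:37825021-37825079 (59 nt), chr18:37833265-37833353 (89 nt) and chr18:37839903-37841873 (1971 nt). A read on a constant exon cannot be assigned to 1 gene of its cluster, so own and constant exons were kept apart.

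Across the series the lists held 38533 peaks in replicate 1 and 30134 in replicate 2, none shorter than 200 nt. Of the marker genes of brain cell types, 5 of 6 for neurons, 4 of 4 for astrocytes, 4 of 4 for the oligodendrocyte lineage and 2 of 2 for microglia carried a shared interval, against 1 of 6 markers of other tissues. The share over all protein-coding genes was 44.4%. A shared interval is a stretch of bases where a replicate 1 peak and a replicate 2 peak overlap. The presence of a peak depends on how much of an RNA there was as well as on its methylation, and in whole brain a gene expressed in few cells and a gene with little RNA per cell cannot be told apart.

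Most clustered protocadherins carried m6A peaks on their own exon. In replicate 1, 55 of 57 own exons had a peak, against 53.1% of all protein-coding genes with a peak anywhere in the exons of their representative transcript. In replicate 2, 50 of 57 had one, against 48.4% of all genes. A shared interval was found on 47 of 57 own exons, where 44.4% of all genes had one, and 45 of 57 still had one when peaks enriched less than 2-fold were dropped from both lists, as did 35.6% of all genes. Genes differ in length and level. Closer in length but not matched in level are the 689 coding exons of other genes with at least 2000 nt of coding sequence. Of these 63.3% had a shared interval, against 82.5% of the own exons.

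**Figure D1:**
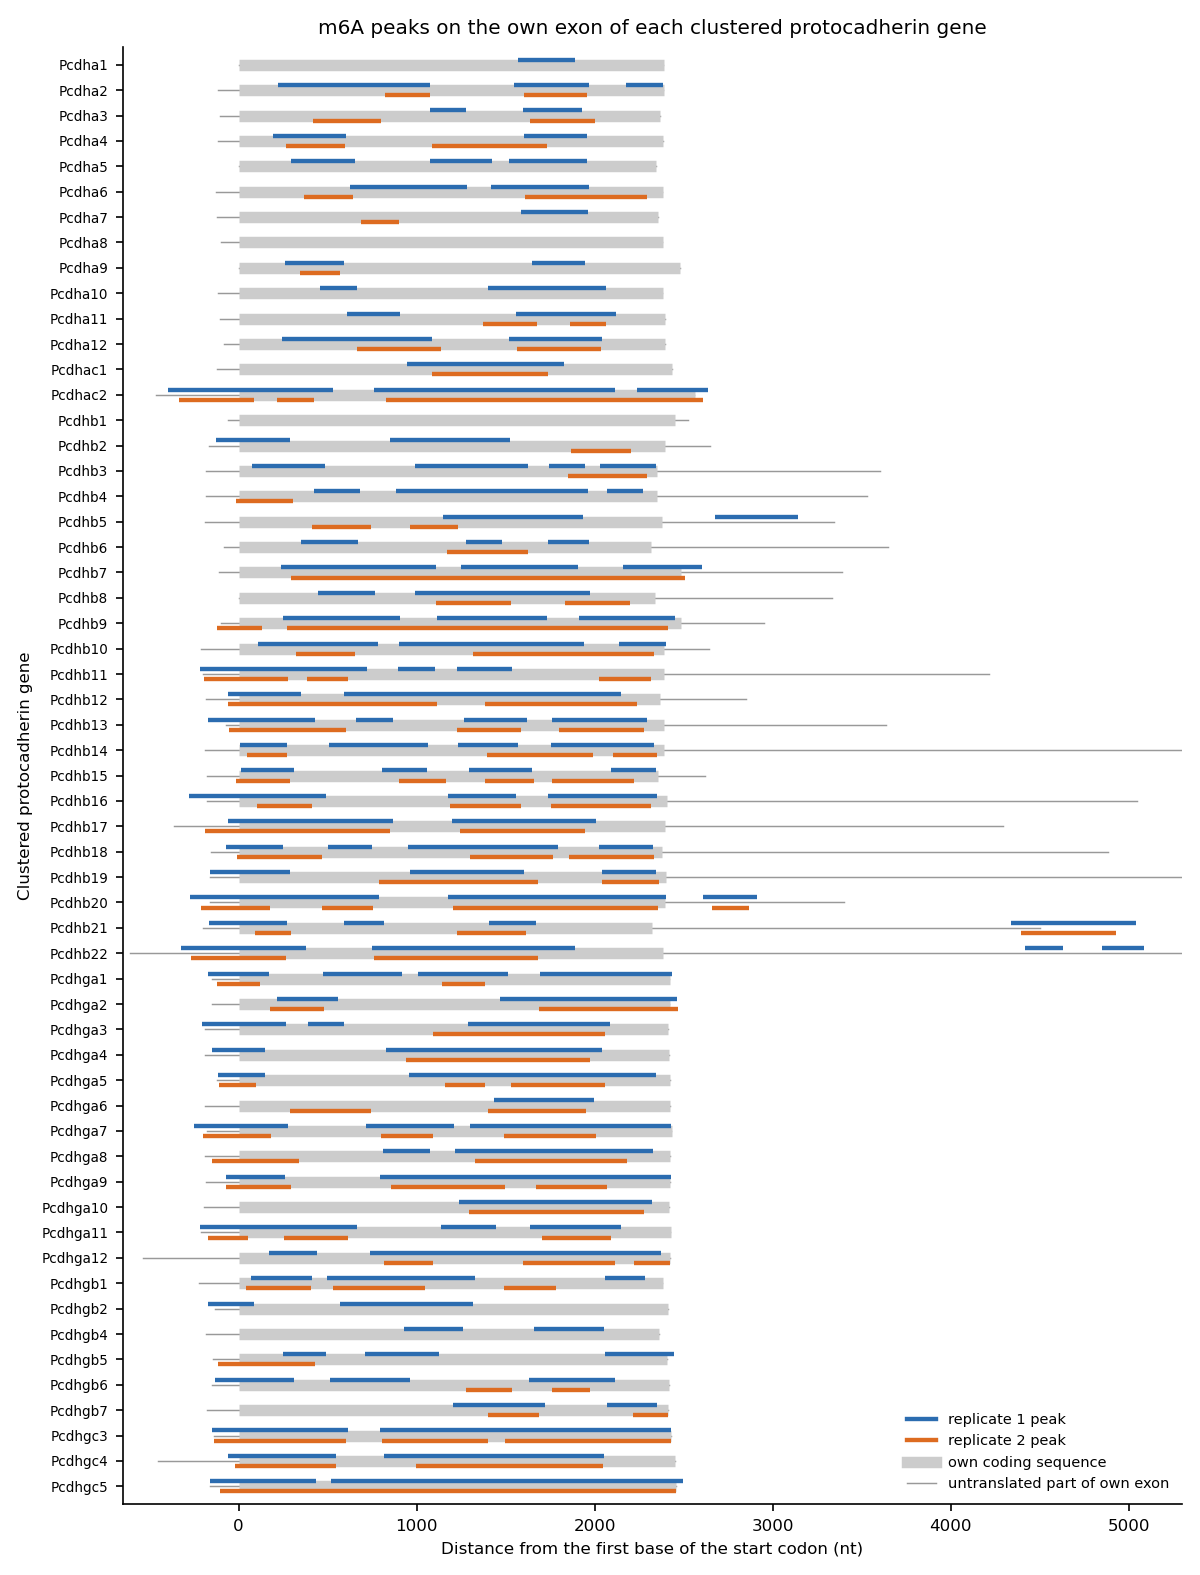
Peaks of replicate 1 (blue) and replicate 2 (orange) on the own exon of each of the 57 genes, by distance in nt from the start of the coding sequence. Grey bars are the own coding sequence and thin lines the untranslated parts, cut at the right edge for Pcdhb14, Pcdhb19 and Pcdhb22. Peaks crowd into the coding bars, and the long 3′ untranslated stretches of the Pcdhb genes are nearly bare.

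The own exons carried 138 peaks in replicate 1 and 104 in replicate 2. Of these, 65.2% of the replicate 1 peaks and 89.4% of the replicate 2 peaks overlapped a peak of the other list, against 68.9% and 76.8% of all peaks on protein-coding exons. The overlaps made 103 shared intervals, and the median one was 360 nt long. Most genes carried several separate peaks, with a median of 2 per gene in both lists and at most 4.

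The median fold enrichment of own-exon peaks was 3.53 in replicate 1 (range 1.64 to 8.58) and 2.99 in replicate 2 (range 1.66 to 6.30). Over all peaks on protein-coding exons the medians were 2.71 and 2.16, so the protocadherin peaks stood higher than the typical peak in both lists. Each list has its own scale. The fold enrichment was higher in replicate 1 for 73.8% of the 103 shared intervals, as it was for 77.6% of all 23901 shared intervals of the series. Between the lists the fold enrichment followed a like order only loosely on these exons, with a Spearman rho of 0.30 over 103 intervals of the same 57 genes, against 0.61 over all 23901 intervals.

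**Figure D2:**
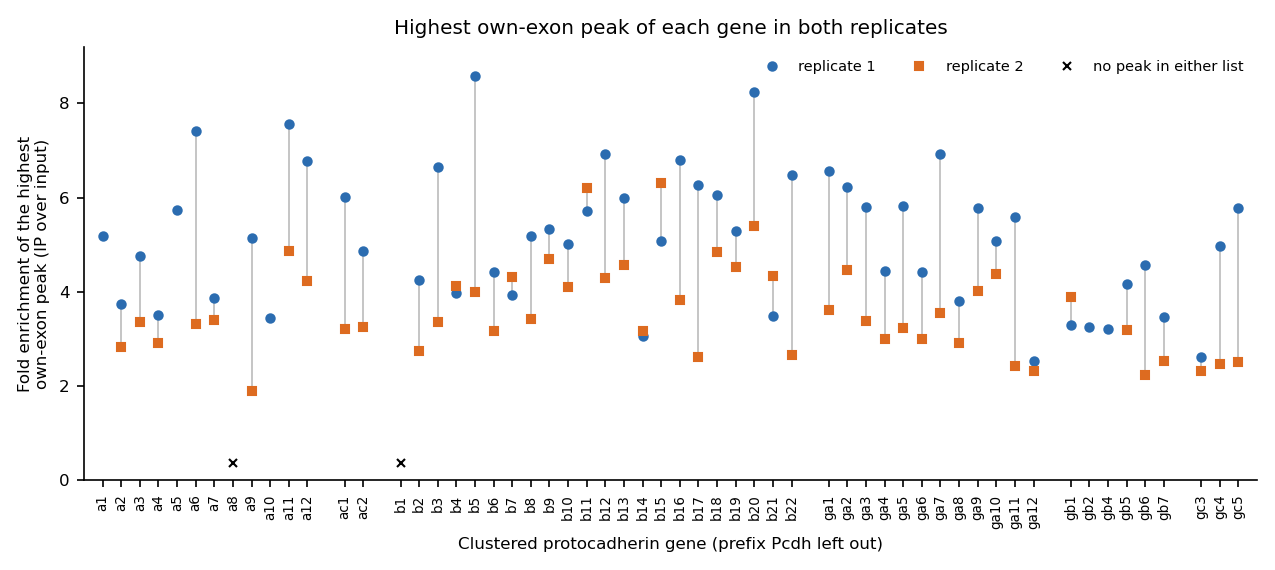
Fold enrichment (linear ratio of IP over input) of the highest own-exon peak of each gene in replicate 1 (blue circles) and replicate 2 (orange squares), grouped by subfamily. The highest values were 8.58 for Pcdhb5 in replicate 1 and 6.30 for Pcdhb15 in replicate 2, and crosses mark Pcdha8 and Pcdhb1, which had no peak in either list.

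In the Pcdha subfamily, whose 12 members Pcdha1 to Pcdha12 are alternate first exons of 1 cluster, 7 of 12 own exons had a shared interval, 11 of 12 had a peak in replicate 1 and 8 of 12 had one in replicate 2. Genes were ordered by the lower of the 2 fold enrichments of their best shared interval. Pcdha11 (own exon chr18:37010752-37013251) was highest, with 7.57 in replicate 1 and 4.87 in replicate 2. Pcdha12 (chr18:37020149-37022623) followed with 6.78 and 4.23. These are neighbours at the 3′ end of the alternate Pcdha exons.

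Pcdha6 came next with 6.89 and 3.32, but this pair of peaks had only 14 nt in common, and its second interval, of 360 nt, had 7.41 and 2.63. Pcdha9 and Pcdha4 were lowest, at 5.13 and 1.89 for Pcdha9 and 3.51 and 2.50 for Pcdha4. Both had replicate 2 values of at most 2.50, while those of the highest 3 were at least 3.32. The other 2 Pcdha genes with a shared interval, Pcdha2 and Pcdha3, had 2.65 and 2.83 and 4.77 and 2.79.

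The Pcdha genes without a shared interval were Pcdha1, Pcdha5, Pcdha7, Pcdha8 and Pcdha10. Pcdha1 had a peak of 5.19, Pcdha5 had 3 peaks up to 5.73 and Pcdha10 had 2 peaks up to 3.43, all in replicate 1, with none in replicate 2. Pcdha7 had a peak in each list, 3.86 from 1586 to 1962 nt after the start codon in replicate 1 and 3.40 from 687 to 903 nt in replicate 2, which do not meet. Pcdha8 had no peak in either list. For 3 of these 5 genes peaks were thus present in replicate 1 alone.

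The Pcdhb genes are single-exon cell-surface members without the common cytoplasmic end, and 19 of 22 had a shared interval. Pcdhb11 (chr18:37421418-37425836) was highest of all clustered protocadherins by the lower value, with 5.71 in replicate 1 and 6.21 in replicate 2. Pcdhb20 (chr18:37504264-37507822) had 8.24 and 5.39, and Pcdhb18 (chr18:37489465-37494505) had 5.005 and 4.85. These intervals lay at different places along the exon, with midpoints at 43 nt after the start of the coding sequence in Pcdhb11, at -16 nt in Pcdhb20 and at 2178 nt in Pcdhb18.

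The other 14 Pcdhb genes with a shared interval ranged from 3.03 to 8.58 in replicate 1 and from 2.60 to 6.30 in replicate 2. The lowest were Pcdhb6, with 2.30 and 3.17, and Pcdhb9, with 3.91 and 2.35. Pcdhb9 was low in fold but broad, with shared intervals over 70.8% of its coding bases. Pcdhb1, Pcdhb2 and Pcdhb4 had no shared interval. Pcdhb1, which lies at the 5′ end of the cluster, had no peak in either list. Pcdhb2 had peaks of up to 4.25 in replicate 1 and 1 of 2.75 in replicate 2, and Pcdhb4 up to 3.98 and 1 of 4.12, at separate places in the 2 lists.

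The Pcdhga and Pcdhgb genes lie interleaved in the Pcdhg cluster and use the same constant exons, and their own exons differed in peak content. All 12 Pcdhga own exons had a shared interval, against 4 of 6 Pcdhgb own exons. Pcdhga2 (chr18:37668953-37671525) had 6.22 in replicate 1 and 4.46 in replicate 2. Pcdhga10 (chr18:37746993-37749605) had 5.09 and 4.37, and Pcdhga9 (chr18:37736936-37739543) had 5.78 and 4.02. At the low end, Pcdhga12 had 2.52 and 2.32 and Pcdhga6 had 4.43 and 2.15. The remaining 7 lay between 3.81 and 5.83 in replicate 1 and between 2.43 and 3.56 in replicate 2.

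Among the Pcdhgb genes, Pcdhgb1 had 3.20 and 3.88, Pcdhgb5 had 3.02 and 3.19, Pcdhgb7 had 2.53 in both lists, and Pcdhgb6 had 4.56 and 1.91. Pcdhgb2 and Pcdhgb4 had 2 peaks each in replicate 1, up to 3.24 and 3.20, and none in replicate 2. Over all own-exon peaks the medians were 3.75 and 2.81 for Pcdhga against 3.02 and 2.43 for Pcdhgb. Pcdhgb values were the lower ones in both lists, but the ranges overlapped widely, from 1.82 to 6.93 for Pcdhga and from 1.82 to 4.56 for Pcdhgb in replicate 1. With 6 Pcdhgb genes in the same 2 lists this difference was not tested.

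The C-type genes, which include Pcdhgc4, known for its part in neuron survival, and Pcdhgc5, known to bind GABA-A receptors, had broad peaks on their own exons, Pcdhac1 excepted. All 5 had a shared interval. Pcdhgc5 (chr18:37819513-37822134) had 96.7% of its own exon in peaks in replicate 1 and 97.9% in replicate 2, the highest shares of all 57 genes in both lists. Pcdhgc3 (chr18:37806410-37808977) had 93.0% and 88.5%, Pcdhac2 (chr18:37143503-37146530) 86.2% and 78.1%, and Pcdhgc4 (chr18:37815079-37817983) 63.6% and 55.6%. Pcdhac1 (chr18:37090013-37092571) was the narrow one, with 34.5% and 25.5%. The shares of Pcdhgc4 were not particular to C-types. Among other genes, Pcdhb12 had 64.8% and 67.0% and Pcdhb20 had 69.5% and 55.8%.

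The fold enrichments of the C-type genes differed between the lists. The best shared intervals had 5.78 in replicate 1 and 2.50 in replicate 2 for Pcdhgc5, 4.97 and 2.47 for Pcdhgc4, and 2.62 and 2.32 for Pcdhgc3. Pcdhac1 had 6.00 and 3.22, and Pcdhac2 had 4.86 and 3.26. In replicate 1, Pcdhgc5 and Pcdhac1 were above the upper quartile of own-exon peaks, 5.06, and Pcdhgc3 was below their median, 3.53. In replicate 2, all 3 Pcdhgc genes were below the median, 2.99. The lists give no summits, so a broad peak cannot be split into the sites it may hold.

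**Figure D3:**
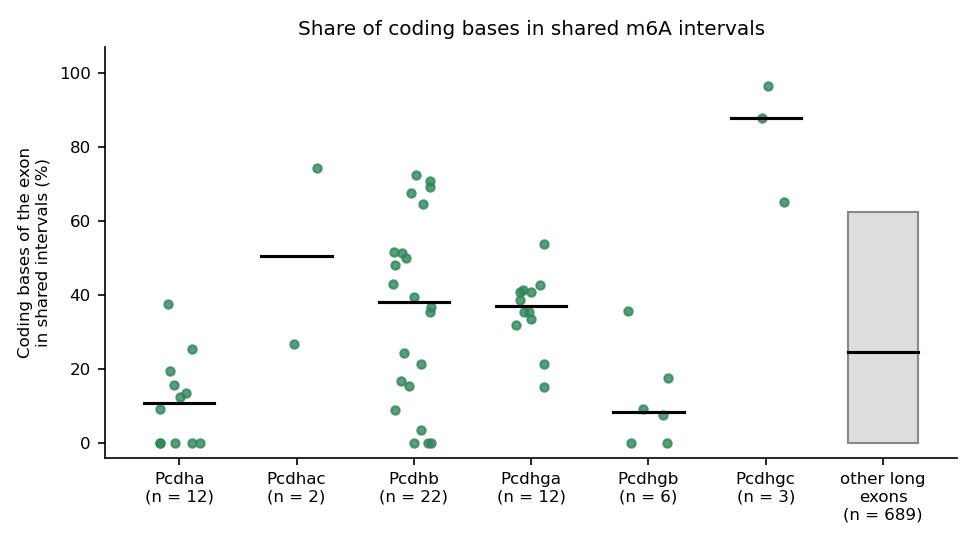
Percent of the coding bases of each own exon that lay in shared intervals, by subfamily (points are genes, black lines medians), beside the median and quartiles (grey box) of 689 coding exons of other genes with at least 2000 nt of coding sequence. The medians ran from 8.31% for Pcdhgb and 10.7% for Pcdha to 87.8% for Pcdhgc, and that of the other long exons was 24.6%. Exons without a shared interval are included, and the median of the 436 other exons with one was 53.6%.

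The share of coding bases inside shared intervals summarises this order. Its median over the 57 genes was 32.0% (range 0 to 96.5%), and over the other long coding exons it was 24.6%, with quartiles of 0 and 62.4%. Exons without a shared interval enter both medians at 0. Among exons with a shared interval the medians stood the other way, at 35.6% over 47 own exons and 53.6% over 436 other exons. By subfamily the medians were 10.7% for Pcdha, 50.6% for Pcdhac, 38.1% for Pcdhb, 37.0% for Pcdhga, 8.31% for Pcdhgb and 87.8% for Pcdhgc. In replicate 1 peaks alone the medians were 34.2%, 61.2%, 64.1%, 59.0%, 38.3% and 92.6% in the same order, and in replicate 2 peaks alone 15.2%, 53.0%, 50.3%, 40.8%, 18.8% and 87.8%. Pcdha and Pcdhgb were lowest in each list. The Pcdhb genes ranged from 0 to 72.3%, the Pcdhga genes from 15.2% to 53.6% and Pcdha1 to Pcdha12 from 0 to 37.4%. The share of the own exon in peaks had a Spearman rho of 0.70 between replicates over the 57 genes, genes without a peak in a list included at 0.

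The long exons of the non-clustered protocadherins, related adhesion genes with their own single loci, are a natural neighbour. Of their 11 coding exons of this length 10 had a shared interval, with a median of 65.5% of coding bases covered, which lay above every clustered subfamily but Pcdhgc. By gene, 11 of 12 non-clustered protocadherins had a shared interval anywhere in their exons, beside 44.4% of all protein-coding genes. Pcdh10 reached 4.97 in replicate 1 and 4.90 in replicate 2 and Pcdh17 reached 5.84 and 5.07, while Pcdh12 had no peak in either list.

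Paralogs with identical stretches share reads, and genes with more such sequence tended to have less of the own exon in shared intervals. The authors kept only uniquely mapped reads, so a stretch of 101 nt, the read length in the labels, that occurs elsewhere in the genome can lose reads in IP and input. The share of 101-mers of the own exon with an exact copy elsewhere had a median of 6.20% in Pcdha1 to Pcdha12 (up to 12.8%) and 3.04% in Pcdhgb (up to 10.6%). It was at most 2.26% in Pcdhb, at most 1.44% in Pcdhga and 0 in all C-type genes. The 2 subfamilies with the lowest median share of coding bases in peaks, in each list and in shared intervals, were those with the most copied sequence. Over the whole own exon this order did not hold in replicate 1, where the median was 38.8% for Pcdhgb and 38.1% for Pcdhb. Over the 57 genes the Spearman rho between copied share and percent of own exon in shared intervals was -0.39. Within Pcdhgb, Pcdhgb2 with 10.6% copied had no shared interval, while Pcdhgb1 with 9.57% had 35.6% of its coding bases in them. At least 95.8% of the bases of each own exon lay in some 101-mer without a copy, and the part of mapping in the difference was not tested.

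On the constant exons, 4 of 7 peaks spanned the last coding base and 3 lay in the 3′ untranslated region. No peak of either list touched the 59 nt or 89 nt constant exons of Pcdha or Pcdhg, which are shorter than any peak. The last constant exon of Pcdha, which holds the final 308 coding bases, had 2 peaks in each list, and both were shared. The first ran from -257 to 118 nt around the last coding base with a fold enrichment of 3.79 in replicate 1, and from -375 to 118 nt with 2.60 in replicate 2. The second lay in the 3′ untranslated region, from 374 to 638 nt with 1.65 in replicate 1 and from 338 to 673 nt with 1.63 in replicate 2.

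The last constant exon of Pcdhg had 1 shared interval. Its peaks ran from -188 to 126 nt with 2.22 in replicate 1 and from -123 to 400 nt with 1.43 in replicate 2. A further replicate 2 peak from 1248 to 1678 nt, with 1.20, had no partner in replicate 1. Shared intervals covered 23.6% of the last Pcdha exon and 12.7% of the last Pcdhg exon. Both clusters thus had a shared peak across the last coding base of their common exon, and it was higher for Pcdha than for Pcdhg in both lists. These exons take part in the transcripts of 14 and 21 genes, so their input is a sum over genes and their fold enrichment is not on a par with that of 1 own exon.

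**Figure D4:**
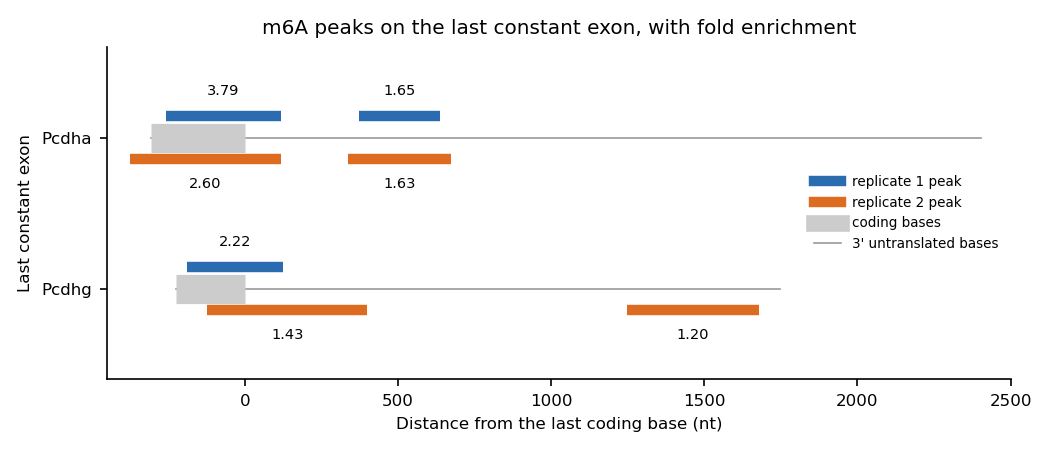
Peaks on the last constant exon of Pcdha and Pcdhg by distance from the last coding base in nt, replicate 1 in blue and replicate 2 in orange, with fold enrichment printed beside each peak. In both clusters a pair of peaks spans the last coding base, with 3.79 and 2.60 in Pcdha and 2.22 and 1.43 in Pcdhg.

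The Pcdhb genes, which carry their last coding base and 3′ untranslated region on the own exon, looked different at this exact base. Only 1 of 22 Pcdhb exons had a shared interval over the last coding base. Of 19 Pcdhb exons with any shared interval this is 5.26%, while among 90 exons of other genes that hold a whole coding sequence of at least 2000 nt and a shared interval it was 55.6%. Other Pcdhb intervals ended shortly before the last coding base. Their midpoints lay at -154 nt from it in Pcdhb10, -168 nt in Pcdhb14, -191 nt in Pcdhb3, -197 nt in Pcdhb18 and -208 nt in Pcdhb19. Intervals ending this near were not counted in the other exons, so the contrast is about the last coding base itself. The bases after the coding sequences of these 19 exons were also nearly free of shared intervals, with 0.987% of 34554 bases covered, against 41.9% of their coding bases. The corresponding shares in the 90 other exons were 12.5% of the bases after the coding sequence and 47.5% of the coding bases.

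By list, 3 Pcdhb exons had a replicate 1 peak over the last coding base and 1 had a replicate 2 peak, so the count was low in each list alone. The 3′ ends are those of the annotation, and whether brain transcripts reach them was not measured. The Pcdhb GGACT density, described below, was also lower after the coding sequence, at 0.555 per kb against 1.52 per kb within it.

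The position of the shared intervals was followed along the own coding sequence. The coding sequence was divided into 5 equal segments. Of 97 interval midpoints in coding sequence, 22.7%, 12.4%, 15.5%, 30.9% and 18.6% fell in segments 1 to 5. In the other long coding exons the shares were 20.5%, 18.4%, 18.3%, 18.3% and 24.6% of 1112 midpoints, so the protocadherin midpoints were most frequent in segment 4 where those of the other exons were not. By cluster this held for Pcdha, with 6 of 16 midpoints in segment 4, and Pcdhg, with 14 of 34, but not for Pcdhb, with 10 of 47 there and 12 in segment 5. In single lists segment 4 was not always first. Segment 1 held more midpoints than segment 4 in Pcdhb in both lists (15 against 11 in replicate 1, 11 against 9 in replicate 2) and in Pcdhg in replicate 1 (15 against 14), and in Pcdha segments 2 and 4 had 5 each in replicate 2.

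Coverage, which counts bases and not midpoints, was highest in segment 4 in every cluster. Shared intervals covered on average 49.2% of segment 4, against 18.4% to 30.7% of the other segments. The values for segment 4 were 33.9% in Pcdha, 47.2% in Pcdhb and 61.4% in Pcdhg. The peaks of replicate 1 alone covered 71.8%, 69.1% and 75.7% of it and those of replicate 2 alone 38.3%, 56.1% and 65.2%, again the highest of the 5 segments in each cluster. In the other long exons coverage was 34.2% in segment 4 and rose to 39.0% in segment 5. Among exons with a shared interval, segment 4 coverage was 59.6% in 47 own exons and 54.0% in 436 other exons. In these other exons it rose to 61.7% in segment 5.

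Bins of 100 nt placed the maximum at a different distance in each cluster. In Pcdhb, 16 of 22 genes (72.7%) had most of the bin from 1400 to 1499 nt in a shared interval and 14 of 22 (63.6%) the bin from 1500 to 1599 nt. In Pcdhg, 15 of 21 genes (71.4%) had both bins from 1800 to 1999 nt covered in this way, and in Pcdha 8 of 14 (57.1%) had the bin from 1600 to 1699 nt. In replicate 1 alone these bins were covered in 21 and 18 Pcdhb genes, 17 Pcdhg genes each and 13 Pcdha genes, and in replicate 2 alone in 16 and 15, 15 each and 8. The lowest bins of Pcdhg lay between 600 and 799 nt, with 2 of 21 genes each.

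**Figure D5:**
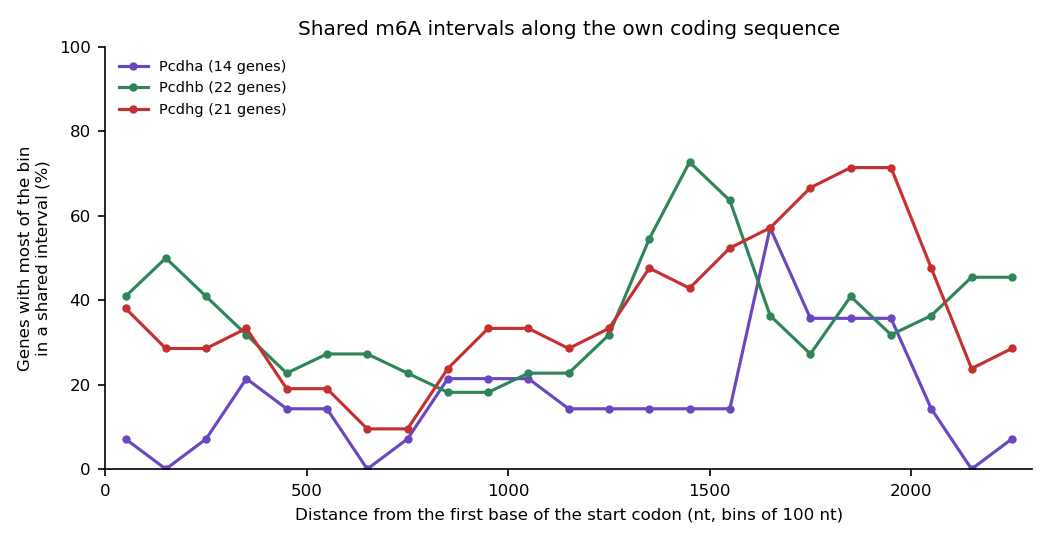
Percent of genes in which most of a 100-nt bin lay in a shared interval, by distance of the bin in nt from the start of the coding sequence, for Pcdha (purple, 14 genes), Pcdhb (green, 22 genes) and Pcdhg (red, 21 genes). Each cluster is highest beyond 1300 nt, with maxima of 72.7% for Pcdhb at 1400 to 1499 nt, 71.4% for Pcdhg at 1800 to 1999 nt and 57.1% for Pcdha at 1600 to 1699 nt.

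Smaller rises lay elsewhere, and in Pcdhb and Pcdhg 1 of them lay at or just after the start codon. In Pcdhb it was highest from 100 to 199 nt, in 11 of 22 genes (50.0%). Pcdhb had another rise from 2100 to 2299 nt, with 10 of 22 genes (45.5%) in each bin. A shared interval covered the first coding base in 8 of 21 Pcdhg and 7 of 22 Pcdhb genes but in 1 of 14 Pcdha genes, Pcdhac2 being that one. In Pcdhb11, Pcdhb20 and Pcdhga7 the best shared interval of the gene was centred within 50 nt of the start codon, at 43, -16 and -10 nt. Among 90 other exons with a whole coding sequence and a shared interval, 38.9% had one over the first coding base, near the 36.8% of the 19 Pcdhb exons with a shared interval.

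The sequence motif GGACT, a common form of the consensus at which the m6A writer complex acts, was denser inside the shared intervals. It was counted on the strand of the genes by its adenosine, since the peaks carry no strand. The own exons held 214 GGACT, of which 90 lay inside shared intervals, or 1.99 per kb, and 124 outside, or 0.904 per kb. The ratio was 2.20 over all genes, 2.00 in Pcdha, 2.46 in Pcdhb and 1.94 in Pcdhg. With the peaks of 1 list alone it was 1.91, 2.77 and 1.48 in replicate 1 and 1.79, 2.48 and 1.61 in replicate 2 for the 3 clusters. For GGAC, described below, the Pcdha ratio was 1.15. Within coding bases alone the GGACT ratio was 2.09 (2.19 in Pcdha, 1.77 in Pcdhb and 2.29 in Pcdhg), so the GGACT-poor 3′ ends of Pcdhb exons made up part of the Pcdhb value.

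GGACT and peaks did not map one to one. Of the 103 shared intervals 60.2% held a GGACT. Of all 360-nt windows, 34.8% in the own exons, 36.6% in the own coding sequences and 29.97% in the coding parts of the other long exons did. The windows have the median length of the intervals, which ran from 14 to 1939 nt, so these shares are only a rough background. All 6 GGACT of Pcdhgc3, all 6 of Pcdhgc5, all 4 of Pcdhgc4, all 5 of Pcdhac2 and all 5 of Pcdhb20 lay in shared intervals. Pcdhb19, with the most of all genes, had 3 of 10 there. Shared intervals covered 88.5%, 94.6%, 55.6%, 74.0% and 55.8% of the own exons of the first genes, in this order. They covered 13.3% of the own exon of Pcdhb19. The counts therefore cannot be compared between genes apart from this coverage. Pcdhga3 has no GGACT on its own exon and still had a shared interval with 5.80 in replicate 1 and 3.37 in replicate 2. Pcdha5, which has none either, had peaks in replicate 1 alone.

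GGACT was also most frequent in segment 4 of the coding sequence, at 1.97 per kb over all genes, against 0.730 to 1.20 per kb in the other segments. In each cluster segment 4 had the highest density, with 1.19 per kb in Pcdha, 2.57 per kb in Pcdhb and 1.87 per kb in Pcdhg. The shorter GGAC, which every GGACT contains, was also densest in segment 4 over all genes, at 7.16 per kb against 4.78 to 6.21 per kb, and in Pcdhg, at 8.46 per kb. In Pcdha it was densest in segment 1, at 9.22 per kb, and in Pcdhb in segment 2, at 8.09 per kb.

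Of the 27 GGACT in segment 4 of the Pcdhb genes, 20 stood at 1 recurring place. At 1558 nt after the start of the coding sequence 7 Pcdhb genes have a GGACT, more than at any other distance in any cluster, and this site was picked after its counts were seen. The 61 nt around it in Pcdhb20 were compared with every other Pcdhb exon without gaps. The best match read GGACT at the same place in 20 of 22 Pcdhb genes, at 1534 to 1663 nt and with at least 83.6% of bases identical, and Pcdhb1 and Pcdhb4 were the exceptions.

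Of the 20 genes with this GGACT, 16 had it in a replicate 1 peak, 15 in a replicate 2 peak and 13 in a shared interval. The 13 were Pcdhb7, Pcdhb9, Pcdhb10, Pcdhb12, Pcdhb13, Pcdhb14, Pcdhb15, Pcdhb17, Pcdhb18, Pcdhb19, Pcdhb20, Pcdhb21 and Pcdhb22. Of the pair without it, Pcdhb4 had its aligned base in a replicate 1 peak and neither had it in a shared interval. Pcdhb11, highest of all genes by the lower fold enrichment, had the GGACT but no peak on it in either list. The 13 of 20 are 65%, near the coverage of the region as such. Of the 22 Pcdhb genes, 14 (63.6%) had most of the bin from 1500 to 1599 nt in a shared interval. In replicate 1 peaks this held for 18 of 22 and in replicate 2 peaks for 15 of 22.

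In Pcdhg a like comparison gave a different result. The reference was Pcdhga2, whose GGACT at 1859 nt recurs at the same distance in 4 genes. The aligned base lay in a shared interval in 11 of 12 Pcdhga genes, though only 3 of the 12 read GGACT there. Of the 6 Pcdhgb genes 5 read GGACT at the aligned place, and 1, Pcdhgb6, had it in a shared interval. At this exact base peak and GGACT were thus often not found together in these neighbouring subfamilies, with 72.1% to 100% of the 61 bases identical to Pcdhga2. No peak is shorter than 200 nt, so the peaks cannot tell this base from its near neighbours. The shared intervals over the aligned base in Pcdhga4, Pcdhga5, Pcdhga9, Pcdhga10 and Pcdhga11 held a GGACT elsewhere. Those of Pcdhga3, Pcdhga7, Pcdhga8 and Pcdhga12 held none. In Pcdhga5 and Pcdhga11 such a GGACT lay at 1844 nt, close to the aligned base at 1859 nt. In Pcdhga9 it lay at 1847 nt, close to the aligned base at 1862 nt. Other motifs in the same peaks were not assigned.

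In Pcdha1 to Pcdha12 the aligned place lay at 1780 to 1888 nt, with Pcdha12 as reference. It was in a replicate 1 peak in 11 of 12 genes, Pcdha8 being the exception, and in a replicate 2 peak in 4 of 12, all 4 of them shared. GGACT was read there in 6 of 12 genes, of which 2 were in a shared interval, as were 2 of the other 6. Replicate 1 therefore showed a peak near this distance in nearly all alternate Pcdha exons, and fewer of them had one in replicate 2.

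Peaks carry no strand, and other annotated genes overlap some own exons. For 14 of 57 genes an exon of another gene lies over part of the own exon, and for 13 of them it runs antisense. Antisense exons cover 97.8% of the own exon of Pcdha11, all of Pcdhga10 and 58.9% of Pcdhgc3, and a read-through gene on the same strand covers 96.3% of that of Pcdha4. For these exons a peak cannot be assigned to 1 of the overlapping genes. Likewise the exons of Pcdhb21 and Pcdhb22 share 455 nt, in which 1 peak of each list was counted for both.

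Genes that act with the clustered protocadherins were examined as 2 lists. Of 11 genes for promoter choice and chromatin looping, 8 had a shared interval, and these included Ctcf, the insulator protein that binds protocadherin promoters, with 4.01 in replicate 1 and 3.16 in replicate 2, and the cohesin subunit Smc1a, with 4.83 and 3.13. The cohesin loader gene Nipbl had 4.40 and 3.71. Stag1, Stag2 and Dnmt3b had no shared interval. The cohesin subunits Rad21 and Smc3 had 3.20 and 2.07 and 2.23 and 2.56. Wapl, which releases cohesin, had 3.64 and 2.50, Smchd1 3.47 and 2.97 and Wiz 2.99 and 2.62. The median best shared fold enrichment of the 8 genes was 3.55 and 2.80, near the 3.56 and 2.70 of the other genes given below, and the share of 8 of 11 stands beside 44.4% of all genes.

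Of 17 genes for binding or processing partners 14 had a shared interval, beside 44.4% of all protein-coding genes. Ptk2, which encodes the focal adhesion kinase bound by the constant cytoplasmic end, had 3.99 in replicate 1 and 3.92 in replicate 2. Axin1 had 2.90 and 2.55 and Adam10, the sheddase, 3.52 and 2.54. Ret, Pdcd10 and Rac1 had no shared interval. The median best shared fold enrichment of these genes was 3.28 and 2.55, below the 4.94 and 3.23 of the 47 clustered protocadherins and the 3.56 and 2.70 of 9685 other genes with a shared interval. For the 11 non-clustered protocadherins with a shared interval it was 3.91 and 3.14, in replicate 2 close to the clustered ones.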

How the data were processed

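Peaks were those of the deposited lists of the 2 m6A IP samples. The authors trimmed and filtered reads, aligned them to mouse genome mm10 with TopHat (TopHat2 2.0.9 in the submitters' processing notes, another version in the methods), kept uniquely mapped reads and called peaks with MACS2 for each IP replicate against its own input, without a fragment-size model, with duplicates kept and without pooling. The deposited fold enrichment is a linear ratio of IP over input and the deposited positions are on mm10. The lists hold no counts, so the depth and any counting error are unknown, and keeping duplicates can raise the ratio of peaks built on few molecules. Input samples enter only through this ratio.

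From these, own exons (the first coding exon of the transcript with the longest coding sequence) and constant exons were taken from GENCODE M21, with both ends of each interval counted. Peaks sharing at least 1 base were called shared. Copies of 101-mers (50-mers as an alternative) were searched on both strands of the GRCm38.p6 chromosomes. Interval code was tested on simulated peaks and checked against bedtools 2.31.1. Python 3.11.15 with numpy 2.4.6 and scipy 1.17.1 was used. Within Pcdha1 to Pcdha12, Pcdhb, Pcdhga and Pcdhgb the 3 highest and 2 lowest genes by the lower fold enrichment of the best shared interval are named, with all C-type genes, all genes without a shared interval and all constant-exon peaks. Other genes are named where a count turned on them, after their values were seen. Members and gene lists were chosen with earlier results of these data known. No sequence of these exons is reported here.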

Additional observations from a re-analysis of the deposited data

Results flagged for a closer look

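Inside the spans of the 3 clusters, 6 replicate 1 peaks touched no exon of a clustered protocadherin gene, and no replicate 2 peak did. They were singled out as signal in data that the comparisons of own and constant exons do not use, and none of the 6 was shared. The Pcdhb span held 4 of them, with fold enrichments of 3.42 to 4.81, at chr18:37462523-37462884, chr18:37463091-37463664, chr18:37468377-37468868 and chr18:37472601-37472817, between the exons of Pcdhb14 and Pcdhb15. The Pcdha span held 1, of 3.50, at chr18:37171277-37171484 between constant exons. The Pcdhg span held 1, of 2.37, at chr18:37762558-37762911, on an exon of the polymorphic pseudogene Pcdhgb8.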

How the results depend on the processing

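No paired analysis was possible because the input samples, which share replicate numbers with the IP samples, have no processed files here. The 43 alternative values were not checked for a change of direction. Of the 27 that keep both lists, 18 stayed within 1.5 times the count or within the spread between the lists. With at least 50% of both peaks in common, 37 own exons and 2 of the 6 Pcdhgb exons had a shared interval, as did 2 places on constant exons instead of 3. Dropping peaks enriched less than 2-fold from both lists left 1 constant-exon interval and a GGACT ratio of 2.09. The median share of own-exon bases in shared intervals, 20.4%, became 32.0% over coding bases only. The replicate 1 median fold enrichment became 3.97 over shared peaks and 5.13 over the best peak per gene. The GGACT ratio became 1.76 for GGAC (2.00 to 1.15 in Pcdha) and 2.09 over coding bases, the latter chosen after seeing the data. The mean share of copied 101-mers, 2.02%, became 6.69% for 50-mers. With 1 list left out, genes with a peak ranged from 50 to 55 (Pcdha 8 to 11, Pcdhb 21 to 21, Pcdhga 12 to 12, Pcdhgb 4 to 6), the median share from 28.1% to 41.4%, midpoints in segment 4 from 27.1% to 28.6% and the GGACT ratio from 2.06 to 2.15. With 11 of 12 Pcdha genes in replicate 1 against 8 in replicate 2, the Pcdha count rests most on the replicate 2 list.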
